A study of Mus musculus with 8 samples.

Results

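Kidney cells clear positively charged drugs, toxins and metabolites from the blood and hold on to carnitine with a small group of membrane carriers, and 6 genes for such carriers were followed here in mouse kidney cortex: Slc22a2, Slc22a4, Slc22a5, Slc22a21, Slc22a18 and Slc47a1. They were picked by gene symbol, with earlier results of these data known, and all 6 were among the 17457 genes listed in the deposited tables. Kidney cortex mRNA was sequenced from 4 C57BL/6J mice fed a diet with 1.2% phosphate (high Pi) and from 4 fed a diet with 0.6% phosphate (normal Pi), each for 3 days and with a library of its own. All were wild type, and no other treatment is named for either diet. The mice of the experiments were male, matched by age and between 8 and 16 weeks old.

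In the proximal tubule, organic cations enter from the blood side through OCT2 (Slc22a2), driven by the membrane voltage, and leave into the tubule lumen through MATE1 (Slc47a1), which exchanges them for protons. OCTN2 (Slc22a5) takes filtered carnitine back up from the lumen together with sodium, and loss of it causes systemic carnitine deficiency. OCTN1 (Slc22a4) carries ergothioneine, a diet-derived antioxidant, and OCTN3 (Slc22a21) is a carnitine carrier described in mice. Slc22a18 is an imprinted gene for an orphan carrier whose substrates are not well established, so its place among cation carriers rests on its name.

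Values are FPKM (fragments per kilobase of transcript, scaled to the size of the library), a measure per length that allows levels to be set side by side between genes. Differences between diets were taken on log2(FPKM + 1) as high Pi minus normal Pi, and limma-trend tested them with Benjamini-Hochberg adjustment over 12383 genes. A gene was called where its adjusted p was under 0.05. The first high Pi library was unlike the others of that diet. Its root mean square distance to them on the log2 scale was 0.299, where the remaining libraries had 0.138 to 0.212 to those of their own diet, and results that turn on it are given with and without it. All 14 markers listed for the proximal tubule segments were above 0 in every library. In bulk tissue, fewer cells of a type and less RNA per cell cannot be told apart.

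Slc22a18 was the most abundant of the carriers, with a mean of 388 FPKM over the 8 libraries (range 318 to 439 FPKM). Slc22a2 followed at 214 FPKM (198 to 232 FPKM) and Slc47a1 at 206 FPKM (184 to 235 FPKM). These neighbours in the order were close, and Slc22a2 was the higher in 4 of 8 libraries. The order of their means differed by diet. Slc22a2 averaged 223 FPKM and Slc47a1 198 FPKM on high Pi, against 205 and 215 FPKM on normal Pi. Slc22a5 averaged 77.9 FPKM (56.2 to 90.9 FPKM), Slc22a4 24.9 FPKM (20.2 to 31.4 FPKM) and Slc22a21 0.648 FPKM (0.480 to 0.770 FPKM). Every other step in this order was kept in 8 of 8 libraries, the narrowest with Slc22a18 at 1.54 times Slc22a2. Averaged over both diets, the genes for the blood side and the lumen side, Slc22a2 and Slc47a1, were at like transcript levels. The carnitine carrier Slc22a5 was lower, and its close relative Slc22a21 was near the filter on low values.

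**Figure D1:**
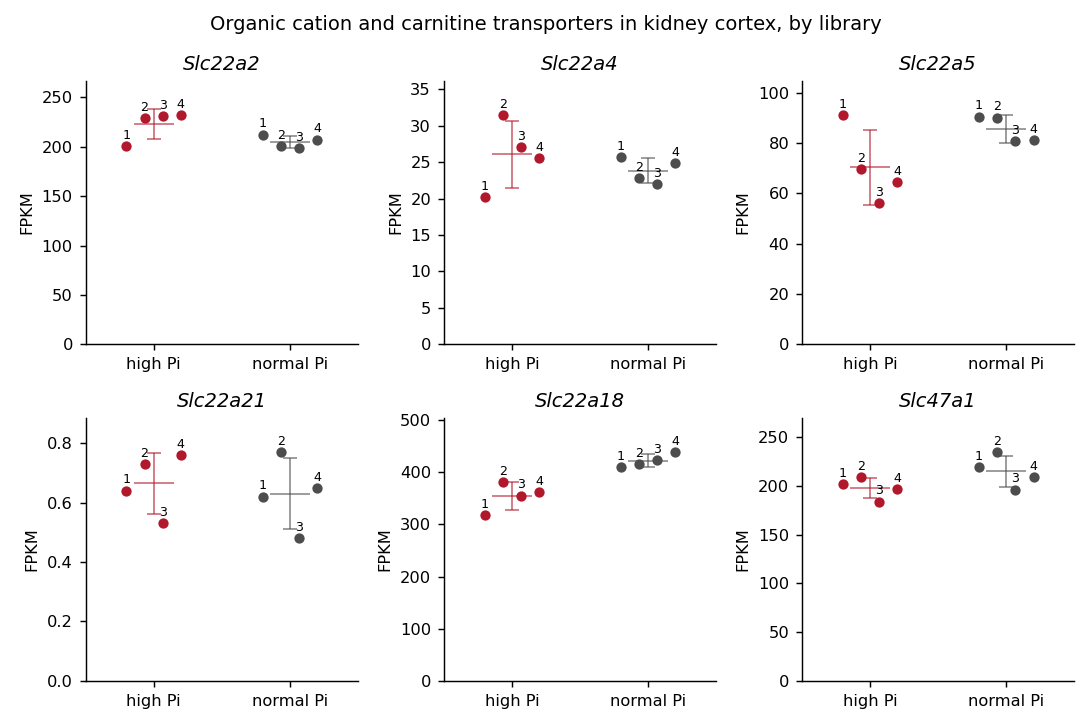
FPKM (linear axes from 0) of the 6 transporter genes in each library, with high Pi on the left and normal Pi on the right of each panel. Points are mice, numbered by replicate, and bars are means ± SD (n = 4 mice). For Slc22a18 the high Pi mice, at 318 to 381 FPKM, all sit below the normal Pi mice, at 410 to 439 FPKM, while the diets overlap for the other genes.

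By limma-trend, 0 of the 6 carriers were called, against 0.299% of all genes tested. An unadjusted p under 0.05 was found for 2 of 6, Slc22a18 and Slc22a5, against 9.35% of all genes, and both had lower means on the high Pi diet (4.8% of all genes had such a p and a lower mean). Values did not overlap between diets for 1 of 6, Slc22a18, against 5.02% of all genes in either direction and 2.62% with the high Pi mice lower. Its exact permutation p was the smallest of the 6, which follows from the lack of overlap. The log2 fold changes lay above 0 for 3 genes and below 0 for 3, with a median of -0.04 beside a median of -0.01 over all genes tested. The carriers thus had no common direction. Of their 37 listed transcripts, 22 had enough signal to be tested and 0 were called, against 0.0221% of all transcripts tested.

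Slc22a18 (gene ID 18400, chromosome 7, positions 143473726 to 143499334 of GRCm38.p6) stands between the imprinted genes Cdkn1c and Phlda2. It had 317.69, 380.95, 355.21 and 361.87 FPKM in the high Pi mice, against 409.69, 415.99, 423.33 and 438.52 FPKM in the normal Pi mice. Every high Pi mouse was lower than every normal Pi mouse, with means of 354 ± 26.5 FPKM on high Pi and 422 ± 12.4 FPKM on normal Pi (SD, n = 4 each), a difference of the means of -16.1%. The exact two-sided permutation test gave p = 0.0286, the smallest that 4 mice against 4 allow, which values without overlap always give. The log2 fold change was -0.26 (standard error 0.0688, 95% confidence interval -0.41 to -0.11, unadjusted p = 0.00303), and it did not pass after adjustment over all genes (limma-trend adjusted p = 0.188). With weights that count each library by its spread, the log2 fold change was -0.23 and passed (adjusted p = 0.0306), in a fit that called 3.76% of all genes. Without high Pi replicate 1, the lowest of the libraries, it was -0.20 (adjusted p = 0.0794). Other alternatives moved it further from the threshold. Median-of-ratios scaling gave -0.25 (limma-trend adjusted p = 0.362), and leaving out normal Pi replicate 4 gave -0.24 (adjusted p = 0.436).

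Most of this gene's signal came from 1 transcript with its own start. NM_001042760.1, which starts at position 143475101, held 85.7% of the Slc22a18 FPKM over the 8 libraries. NM_008767.2, which starts 1365 bases upstream at position 143473736, held 8.66%. The main transcript had 262.84, 309.15, 309.68 and 310.38 FPKM on high Pi, against 353.98, 361.95, 366.95 and 383.39 FPKM on normal Pi. These values again did not overlap, with a log2 fold change of -0.30 and an unadjusted p of 0.00152 that did not pass over all transcripts tested (limma-trend adjusted p = 0.278). The upstream-start transcript had 35.91, 38.08, 24.36 and 33.30 FPKM on high Pi, against 37.53, 30.50, 35.51 and 33.46 FPKM on normal Pi, and the diets overlapped (log2 fold change -0.07, adjusted p = 0.961). Whether the transcripts differed from each other in their response to diet was not tested, and splitting reads between overlapping transcripts is itself an estimate.

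The stretch before the upstream start is shown for Slc22a18 because the transcripts part at their starts. It comes from RefSeq (GRCm38.p6, chr7:143473539-143473725, plus strand) and ends where the outermost annotated start begins, and the start of the main transcript lies downstream of it. It holds 187 bases with a GC content of 52.9% and 0 CpG dinucleotides.
Slc22a18: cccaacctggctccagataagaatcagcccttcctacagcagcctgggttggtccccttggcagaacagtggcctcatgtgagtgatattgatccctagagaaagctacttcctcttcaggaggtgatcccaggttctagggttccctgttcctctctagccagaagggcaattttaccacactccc
The letters AGGTCA (nuclear receptor half-site), TGACNNNGC (antioxidant response element core), GGGCGG (GC box), CACGTG (E-box), CCAAT (the CCAAT box), TATAAA (the TATA box) and GTTAAT (HNF1 half-site) were searched on both strands. None of them stood in this stretch. Of all 32851 promoter windows, cut to the same length just before their listed start sites, between 4.65% (GTTAAT) and 30.5% (GGGCGG) held a match. The Slc22a18 stretch was cut further upstream in its own window, so the shares are matched in length and not in place.

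The nearest tested genes on either side of Slc22a18 had higher means on high Pi. Phlda2, an imprinted growth regulator 2211 bases away, averaged 41.1 ± 8.90 FPKM on high Pi and 31.0 ± 4.46 FPKM on normal Pi (SD, n = 4 each). Its log2 fold change was 0.38 (limma-trend adjusted p = 0.402), and without high Pi replicate 1 it was 0.52 and passed (adjusted p = 0.0337). Cdkn1c, an imprinted inhibitor of cell division 12667 bases away, averaged 12.2 FPKM on high Pi and 10.8 FPKM on normal Pi, with a log2 fold change of 0.16 (adjusted p = 0.581). The genes whose deviations over the 8 libraries were nearest to those of Slc22a18 were Cmbl (root mean square difference 0.0490 on the log2 scale, log2 fold change -0.21) and Dao (0.0513, log2 fold change -0.20).

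**Figure D2:**
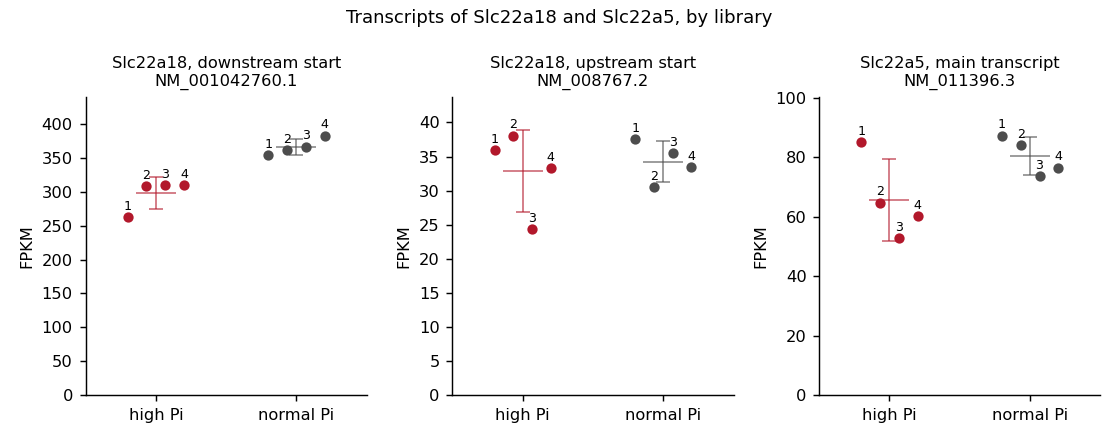
FPKM (linear axes from 0) of the Slc22a18 transcripts with the downstream and the upstream start and of the main Slc22a5 transcript in each library, high Pi left of normal Pi. Points are mice, numbered by replicate, and bars are means ± SD (n = 4). The downstream-start transcript of Slc22a18 has 263 to 310 FPKM on high Pi and 354 to 383 FPKM on normal Pi with no overlap, and the other panels overlap.

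Slc22a5, Slc22a21 and Slc22a4 stand next to each other on chromosome 11 of GRCm38.p6 and encode OCTN2, OCTN3 and OCTN1. Slc22a5 (gene ID 20520) spans 53864542 to 53891796, Slc22a21 (gene ID 56517) spans 53949954 to 53980333, and Slc22a4 (gene ID 30805) spans 53983115 to 54030040, only 2782 bases beyond Slc22a21. In the RefSeq transcripts the coding sequences of Slc22a5 and Slc22a21 were identical at 90.5% of aligned bases, those of Slc22a4 and Slc22a5 at 77.7% and those of Slc22a4 and Slc22a21 at 75.8%. The first 120 coding bases are shown as an example and do not stand for the whole coding sequence. Over these bases Slc22a4 is the closer to Slc22a5, while over the whole coding sequence Slc22a21 is the closer. Capitals mark bases that differ from Slc22a5, which are 11 in Slc22a21 and 5 in Slc22a4.
Slc22a5: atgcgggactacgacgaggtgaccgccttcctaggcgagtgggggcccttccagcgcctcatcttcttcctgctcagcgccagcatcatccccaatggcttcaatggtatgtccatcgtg
Slc22a21: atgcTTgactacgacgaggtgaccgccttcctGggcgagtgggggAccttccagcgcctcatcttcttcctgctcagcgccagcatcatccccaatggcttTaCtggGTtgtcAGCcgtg
Slc22a4: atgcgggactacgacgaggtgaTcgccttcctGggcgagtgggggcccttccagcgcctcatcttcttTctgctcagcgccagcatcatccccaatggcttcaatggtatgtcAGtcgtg
The longest coding run that Slc22a5 and Slc22a21 share without a difference is 157 bases, at coding bases 1289 to 1445 of Slc22a5 and 1298 to 1454 of Slc22a21. It is shown because a read that falls inside it fits both genes.
Slc22a5 and Slc22a21: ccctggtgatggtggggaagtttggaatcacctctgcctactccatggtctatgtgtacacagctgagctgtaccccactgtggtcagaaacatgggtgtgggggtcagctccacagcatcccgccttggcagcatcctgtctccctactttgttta

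Of all stretches of 50 bases in the main transcripts, 27.1% of those of Slc22a5 and 24.2% of those of Slc22a21 occurred unchanged in the transcripts of another gene. For Slc22a4 the share was 2.98% and for Slc22a2 it was 4.71%. Slc22a18 and Slc47a1 had 0. How the authors' counting assigned reads from shared stretches is not given in the sources used here, so the low values of Slc22a21 beside the abundant Slc22a5 are uncertain.

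Slc22a5 had 90.93, 69.61, 56.20 and 64.30 FPKM in the high Pi mice, against 90.46, 90.05, 80.65 and 81.00 FPKM in the normal Pi mice. High Pi replicates 2 to 4 were lower than every normal Pi mouse, while high Pi replicate 1 was the highest of all 8 libraries. The means were 70.3 ± 14.8 FPKM on high Pi and 85.5 ± 5.45 FPKM on normal Pi (SD, n = 4 each). The log2 fold change was -0.30 (standard error 0.12, 95% confidence interval -0.56 to -0.04, unadjusted p = 0.0277, limma-trend adjusted p = 0.422), and the exact two-sided permutation test gave p = 0.143. Without high Pi replicate 1 the log2 fold change was -0.43 and passed (adjusted p = 0.0161), in a fit that called 3.44% of all genes and 2.17% as lower on high Pi. It also passed with library weights (-0.34, adjusted p = 0.0327). The carnitine carrier transcript was therefore lower on high Pi past the threshold only where that library was left out or libraries were weighted, among the alternatives run. NM_011396.3 held 93.8% of the signal and had a log2 fold change of -0.30 (adjusted p = 0.701 over transcripts).

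Markers of the early proximal tubule (S1 and S2 segments), where carnitine is taken back, also had log2 fold changes below 0, in 8 of 8 (median -0.30). Over all 12383 genes tested, 6727 lay below 0 (median -0.01). Of the 8 markers, 0 were called by limma-trend with all mice, against 0.299% of all genes. An unadjusted p under 0.05 was found for 3, against 9.35% of all genes. Without high Pi replicate 1, 6 of 8 were called lower (median -0.40), against 2.17% of all genes (median -0.04). The list holds the phosphate carrier genes Slc34a1 and Slc34a3, for Npt2a and Npt2c, which the authors describe as downregulated by FGF23. No marker was at 0 in any library. The summed level of the 8 markers was 3243 to 3965 FPKM on high Pi and 4279 to 4951 FPKM on normal Pi. These sums did not overlap, but Slc34a1 made up 83.5% of the level. Without Slc34a1 the sum was 479 to 801 FPKM on high Pi and 737 to 805 FPKM on normal Pi, with high Pi replicate 1 at 801 FPKM and high Pi replicates 2 to 4 between 479 and 564 FPKM. Values did not overlap between diets for 2 of the 8 markers, against 5.02% of all genes. High Pi replicate 1, the high library for Slc22a5, was also the highest of all 8 libraries for 5 of the 8 markers. For Slc22a18, high Pi replicate 1 was instead the lowest of all 8 libraries, at 317.69 FPKM. The part of the markers in the lower values of Slc22a5 and Slc22a18 was not tested.

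The gene nearest to Slc22a5 in its deviations over the 8 libraries was Lrp2, which encodes the endocytic receptor megalin and is one of these markers (root mean square difference 0.0430). Lrp2 averaged 108 ± 23.1 FPKM on high Pi and 125 ± 4.55 FPKM on normal Pi, with a log2 fold change of -0.24 (adjusted p = 0.588) that was -0.37 and passed without high Pi replicate 1 (adjusted p = 0.0273). Dnajc6 came next (0.0490, log2 fold change -0.29) and likewise passed without that library (-0.42, adjusted p = 0.0473).

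The stretch before the outermost annotated start of Slc22a5 is shown because this was the carrier whose call turned on a single library. It comes from RefSeq (GRCm38.p6, chr11:53891797-53891953, minus strand), with a GC content of 66.9% and 16 CpG dinucleotides in 157 bases. The start of the main transcript, NM_011396.3, lies downstream of it, at position 53891660. Capitals mark the only match to the motifs listed above, a GC box (GGGCGG) read on the other strand, 79 bases from the downstream end.
Slc22a5: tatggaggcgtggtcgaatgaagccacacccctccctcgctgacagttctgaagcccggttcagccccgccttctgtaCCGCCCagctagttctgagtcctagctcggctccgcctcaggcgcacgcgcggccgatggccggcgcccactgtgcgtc
Of all promoter windows, cut to that length just before their listed start sites, 29.1% held the same letters. The Slc22a5 stretch was cut further upstream in its own window, so this share is matched in length and not in place. The match is given as a description.

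**Figure D3:**
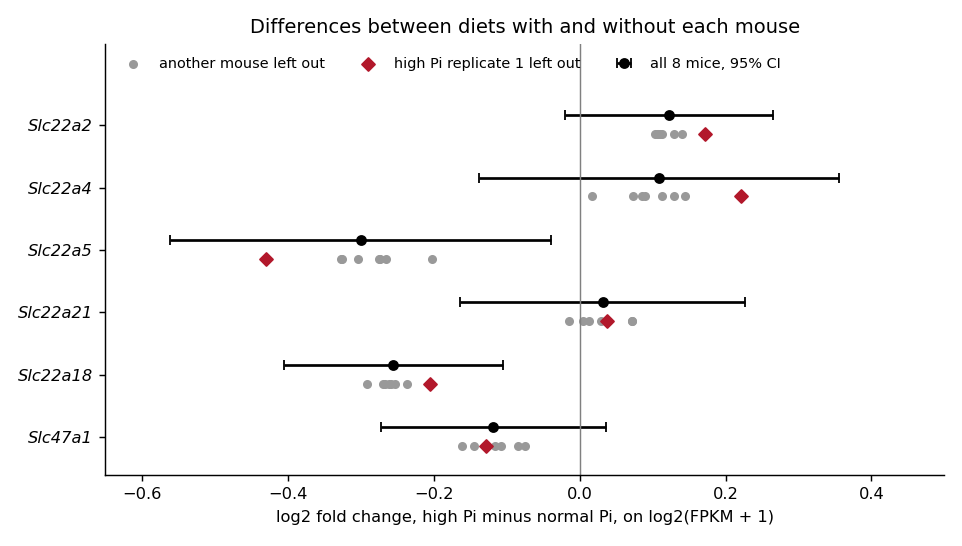
Difference between diets (log2 fold change of high Pi over normal Pi, from log2(FPKM + 1)) for the 6 transporter genes. Black points and bars are the fit of all 8 mice with its 95% confidence interval, red diamonds leave out high Pi replicate 1, and grey points leave out each of the other mice. Slc22a5 lies at -0.30 with all mice and at -0.43 without high Pi replicate 1, and Slc22a18 stays between -0.29 and -0.20.

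Slc22a21 had 0.64, 0.73, 0.53 and 0.76 FPKM in the high Pi mice, against 0.62, 0.77, 0.48 and 0.65 FPKM in the normal Pi mice. The diets overlapped throughout, with a log2 fold change of 0.03 (95% confidence interval -0.16 to 0.23, adjusted p = 0.962) that was -0.01 without normal Pi replicate 3. Its signal was spread over 9 listed transcripts, of which 0 had enough signal to be tested. The leading one, NM_019723.2, rested on an estimated 2 to 22 fragments a library (median 9). No difference between diets was found within that interval, on a scale that understates changes of genes this low.

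Slc22a4 had 20.19, 31.42, 27.07 and 25.52 FPKM in the high Pi mice, against 25.68, 22.82, 21.99 and 24.88 FPKM in the normal Pi mice. High Pi replicates held both the lowest and the highest value, replicates 1 and 2, and the diets overlapped. The means were 26.1 ± 4.64 FPKM on high Pi and 23.8 ± 1.73 FPKM on normal Pi (SD, n = 4 each), with a log2 fold change of 0.11 (95% confidence interval -0.14 to 0.36, adjusted p = 0.846). It was 0.22 without high Pi replicate 1 (adjusted p = 0.183) and 0.02 without high Pi replicate 2. No transcript dominated this gene, since NM_019687.3 held 39.6%, XM_006533513.1 30.9% and XM_006533514.3 16.6% of its signal.

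Beyond Slc22a4 lies Pdlim4, a gene for an actin-binding protein, 24888 bases away. It averaged 2.40 ± 0.124 FPKM on high Pi and 1.37 ± 0.335 FPKM on normal Pi with no overlap, a log2 fold change of 0.53 (adjusted p = 0.0783). Leaving out high Pi replicate 1 gave 0.51 and a call (adjusted p = 0.0325). On the far side of Slc22a5, Irf1, an interferon-response transcription factor, had a log2 fold change of 0.00 (adjusted p = 0.997). The nearest genes to Slc22a4 by deviations over the libraries were Lrrc51 and Tmem205 (root mean square differences 0.0643 and 0.0655), and those to Slc22a21 were Anapc7 and Plscr4 (0.0326 and 0.0362).

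Slc22a2 (gene ID 20518) lies on chromosome 17 from 12584189 to 12628489, and NM_013667.2 held 99.3% of its signal. It had 201.11, 229.03, 230.99 and 231.89 FPKM in the high Pi mice, against 212.46, 200.76, 198.33 and 207.34 FPKM in the normal Pi mice. High Pi replicates 2 to 4 lay above every normal Pi mouse within 3 FPKM of each other, and high Pi replicate 1 lay among the normal Pi mice. The means were 223 ± 14.8 FPKM on high Pi and 205 ± 6.41 FPKM on normal Pi (SD, n = 4 each), a log2 fold change of 0.12 (95% confidence interval -0.02 to 0.26, adjusted p = 0.614, exact two-sided permutation p = 0.0857). Without high Pi replicate 1 it was 0.17 and still did not pass (adjusted p = 0.112).

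In rodents OCT2 is found mainly in the later proximal tubule. The summed level of 6 markers of the late proximal tubule (S3 segment) was lowest in the same library, high Pi replicate 1, at 439 FPKM. It was 809 to 856 FPKM in the other high Pi mice, against 576 to 818 FPKM in the normal Pi mice. That library was the lowest of all 8 for 4 of the 6 markers, but the highest for Slc5a1, at 22.74 FPKM, and among the normal Pi mice for Cyp7b1. None of these markers was at 0 in any library, and their part in the Slc22a2 values was not tested.

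Map3k4, a neighbour of Slc22a2, had a log2 fold change of -0.13 (adjusted p = 0.756). Gss and Shpk were nearest to Slc22a2 in their deviations over the libraries (root mean square differences 0.0248 and 0.0335), with log2 fold changes of 0.14 and 0.15.

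Slc47a1 (gene ID 67473) lies on chromosome 11 from 61343400 to 61378842, and NM_026183.5 held 93.0% of its signal. It had 201.53, 208.54, 183.73 and 196.32 FPKM in the high Pi mice, against 219.22, 234.57, 195.97 and 209.17 FPKM in the normal Pi mice. The diets overlapped, although each high Pi mouse was below the normal Pi mean. The means were 198 ± 10.5 FPKM on high Pi and 215 ± 16.3 FPKM on normal Pi (SD, n = 4 each), a log2 fold change of -0.12 (95% confidence interval -0.27 to 0.04, adjusted p = 0.664, exact two-sided permutation p = 0.143). The neighbouring genes Aldh3a2 and Mfap4 had log2 fold changes of 0.04 (adjusted p = 0.953) and 0.30 (adjusted p = 0.670), and without high Pi replicate 1 that of Mfap4 was 0.08. Trim41 and Otud5 were nearest to Slc47a1 in their deviations (root mean square differences 0.0303 and 0.0415). For the entry and exit steps together, the 95% confidence intervals of Slc22a2 and Slc47a1 lay between -0.27 and 0.26 on the log2 scale.

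Further carriers of organic cations were at very low levels. Slc22a3 (OCT3) had a mean of 0.125 FPKM on high Pi and 0.0900 FPKM on normal Pi, Slc29a4 (a monoamine transporter) 0.193 and 0.10 FPKM, Slc22a15 0.153 and 0.148 FPKM, and Slc47a2 (MATE2) 0.0275 and 0.0650 FPKM. They were too low to test, and Slc22a16 was not analysed here.

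Genes that make, use or move carnitine and amines were set beside the carriers, from lists chosen with earlier results of these data known. In carnitine acyl transfer and exit, 0 of 8 tested genes were called by limma-trend, 2 of 8 had an unadjusted p under 0.05, and all 8 log2 fold changes were above 0, with a median of 0.15 beside -0.01 over all genes. Without high Pi replicate 1, 5 of 8 were above 0, with a median of 0.07. Cpt2, which rebuilds acyl-CoA inside mitochondria, averaged 109 ± 12.3 FPKM on high Pi and 89.0 ± 5.85 FPKM on normal Pi with no overlap (log2 fold change 0.28, adjusted p = 0.237). Crot, the peroxisomal carnitine octanoyltransferase, averaged 134 ± 23.4 FPKM on high Pi and 100 ± 23.6 FPKM on normal Pi (log2 fold change 0.42, adjusted p = 0.375), and with high Pi replicate 1 left out it was called (0.56, adjusted p = 0.0455). Carnitine synthesis had 0 of 3 called, with Aldh9a1 at 0.06 (adjusted p = 0.809) and Tmlhe at 0.08 (adjusted p = 0.864).

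Among 12 genes of amine and methylated cation metabolism, limma-trend called 0, and an unadjusted p under 0.05 was found for 2. Agmat, which breaks down agmatine, averaged 1.73 ± 0.275 FPKM on high Pi and 2.98 ± 0.294 FPKM on normal Pi with no overlap (log2 fold change -0.55, adjusted p = 0.0521). Odc1, the rate-limiting enzyme of polyamine synthesis, averaged 498 ± 122 FPKM on high Pi and 359 ± 52.1 FPKM on normal Pi (log2 fold change 0.45, adjusted p = 0.348). Both passed without high Pi replicate 1, Agmat at -0.58 (adjusted p = 0.0145) and Odc1 at 0.61 (adjusted p = 0.0185). Gatm, which makes the creatine precursor guanidinoacetate, passed there too, at -0.57 (adjusted p = 0.00787), with -0.33 in all mice (adjusted p = 0.644). Odc1 also stands in a list of 6 androgen-responsive tubule genes. Without Kap, which made up 97.7% of their summed level, the sum was lowest in high Pi replicate 1, at 1408 FPKM, with 2095 to 2449 FPKM in the other high Pi mice, against 1905 to 2212 FPKM in the normal Pi mice. That library was the lowest of all 8 for 4 of the 6 genes, and Odc1 was not one of them, with 343.98 FPKM there. Their part in these values was not tested.

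Choline and thiamine carriers had 0 of 8 tested genes called and 0 with an unadjusted p under 0.05, with a median log2 fold change of 0.06 (-0.02 without high Pi replicate 1). The thiamine carrier Slc19a3 had 0.09 (adjusted p = 0.827) and Flvcr2 had 0.16 (adjusted p = 0.854). Slc9a3, the sodium-proton exchanger of the lumen side, had 0.06 (adjusted p = 0.874).

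Of 12 regulators and scaffold proteins of these carriers, limma-trend called 0, and an unadjusted p under 0.05 was found for 3, with a median log2 fold change of -0.02. Hnf4a, a transcription factor of the proximal tubule, averaged 209 ± 11.01 FPKM on high Pi and 236 ± 8.03 FPKM on normal Pi with no overlap (log2 fold change -0.17, adjusted p = 0.345). Pdzk1ip1, a small membrane protein that binds the scaffold Pdzk1, averaged 900 ± 79.8 FPKM on high Pi and 1030.1 ± 68.5 FPKM on normal Pi (log2 fold change -0.20, adjusted p = 0.456). Ppara, the nuclear receptor that drives fatty acid oxidation genes, had a higher mean on high Pi, with 18.3 ± 3.25 FPKM on high Pi and 14.8 ± 0.866 FPKM on normal Pi (log2 fold change 0.27, adjusted p = 0.462). None of these 3 passed without high Pi replicate 1.

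**Figure D4:**
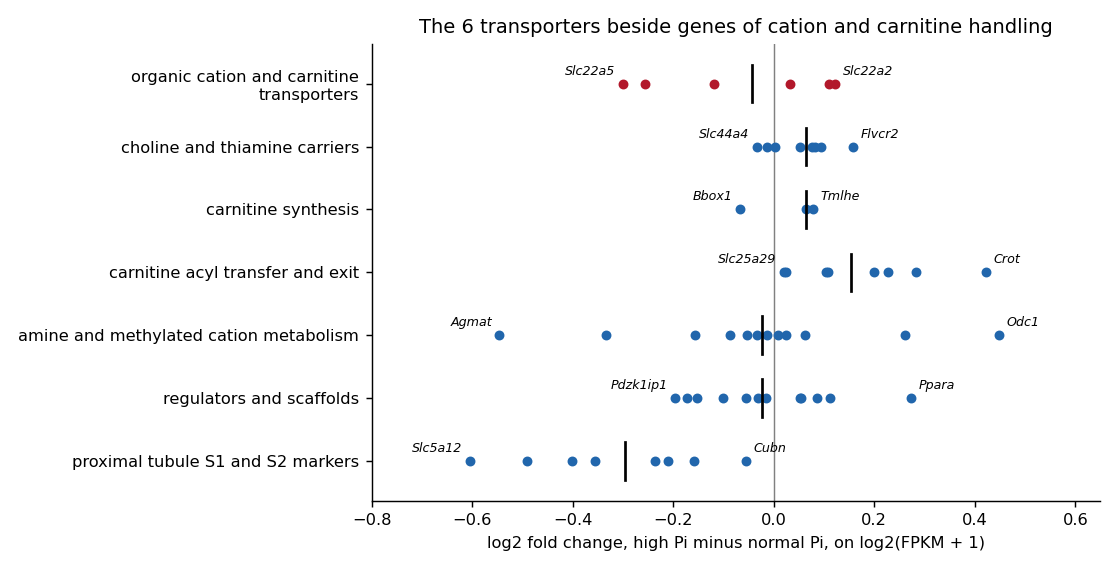
Difference between diets (log2 fold change of high Pi over normal Pi, from log2(FPKM + 1)) for each tested gene, with the 6 transporters in red, genes of related lists and the early proximal tubule markers in blue, and the lowest and highest gene of each row named. Black ticks are medians. The transporters lie between -0.30 and 0.12, all 8 genes of carnitine acyl transfer and exit lie above 0 (5 of 8 without high Pi replicate 1), and all 8 early proximal tubule markers lie below 0 with and without that library.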

How the data were processed

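Kidney cortex mRNA from 4 high Pi and 4 normal Pi mice was sequenced by the authors on the BGI DNBSEQ platform. Per the labels and the study's notes, GRCm38.p6, HISAT and Bowtie2 were used, with versions and the counting step not given in the sources used here. The authors deposited FPKM per gene and per transcript, rounded to hundredths. A gene's value and its summed transcripts differed by at most 0.04 FPKM. No counts were used, so limma-trend took the place of a count model.

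Depth is not stored in FPKM. It was estimated at 13000000 to 14100000 fragments a library from the steps between low values, as an approximation that depends on the transcript lengths used. Between 75.0% and 80.1% of values came within 0.2 of a whole fragment, against 40% for random values without a fit. Depth and a length offset were chosen to bring these same values nearest to whole fragments. The share is therefore not a test of the estimate. At that depth the main transcripts rested on a median of 5816 fragments for Slc22a2, 273 for Slc22a4, 3068 for Slc22a5, 6563 for Slc22a18 and 6639 for Slc47a1.

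Genes that reached 0.5 FPKM in 4 or more libraries were fitted on log2(FPKM + 1) by limma-trend (limma 3.58.1, R 4.3.3), normal Pi being subtracted from high Pi, and calls were made at 0.05 after Benjamini-Hochberg adjustment. The fit was checked on simulated data. For single carriers, the exact permutation test ran over the 70 ways to split the mice. The transcript tables were fitted the same way. Nothing in the labels says how mice were housed or processed together, so p-values measure the spread between these 8 mice.

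The genes and lists were chosen with earlier results of these data known. Named genes were the 6 carriers, other organic cation carriers, the genes of each other list with the smallest unadjusted p (2 a list where none passed), the nearest tested gene on each side, and the 2 genes with the smallest root mean square difference in deviations over the 8 libraries among genes with a mean of at least 5 FPKM. The results of some genes under this rule are not given here. Lrp2 is also in the marker list, and Odc1 in the list of androgen-responsive genes. Gatm, Ppara, Kap and the markers Slc34a1, Slc34a3, Slc5a1 and Cyp7b1 were named after their values were seen. Alternatives were quantile normalization, median-of-ratios scaling, a pseudocount of 0.1, no filter, a replicate block, array weights and leaving out each library. Sequences come from RefSeq promoter windows, found for 4 of the 6 genes, and from GENCODE M21 transcripts on GRCm38 matched to the RefSeq accessions, with coding sequences aligned end to end. Python 3.11.15 served for these and for the plots.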

Additional observations from a re-analysis of the deposited data

Results flagged for a closer look

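Slc22a2 in high Pi replicate 1 stood away from the other mice of its diet, at 201.11 FPKM beside 229.03, 230.99 and 231.89 FPKM. The gap to the nearest of the others was 0.907 of the range of the group, above Dixon's 95% critical value for 4 samples. It was the only such value among 12 groups of 4 (6 carriers on each diet), and chance marks about 1 in 20 groups. The log2 fold change of Slc22a2 was 0.12 with all mice and 0.17 without that library, and neither passed.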

How the results depend on the processing

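Slc22a2, Slc22a4 and Slc47a1 kept their direction and stayed short of the threshold in all 14 alternatives. Array weights brought Slc22a5 (-0.34) and Slc22a18 (-0.23) past the threshold. Leaving out 1 library gave -0.43 to -0.20 for Slc22a5 (past it only without high Pi replicate 1), -0.29 to -0.20 for Slc22a18 and -0.014 to 0.072 for Slc22a21, where the direction turned without normal Pi replicate 3. The 37 genes called fell to 8 with no filter and 11 with the replicate block, and were 466 with array weights and 4 to 423 with 1 library left out, the most without high Pi replicate 1. The cause was not tested. In carnitine acyl transfer and exit, array weights called 3 genes (Cpt2, Crot and Slc16a9). The weights also called 3 genes of amine metabolism (Agmat, Gatm and Odc1) and 1 regulator (Pdzk1ip1). Leaving out 1 library called 0 to 1 genes of carnitine acyl transfer and exit and 0 to 3 of amine metabolism. Small values near 0 turned sign for Irf1 (-0.099 to 0.12), Aldh3a2 (-0.040 to 0.12) and Anapc7 (-0.024 to 0.059) with 1 library left out, and for Plscr4 with quantile normalization (0.0074), array weights (0.015) and 1 library left out (-0.044 to 0.031). Deviations of same-numbered mice correlated at -0.21, -0.01, 0.06 and -0.12, too few values to tell whether the numbers pair the mice. The replicate block changed no call among the 6 carriers. High Pi replicate 1 correlated best with normal Pi replicate 2 (0.25). Depth was thinnest for Slc22a21, whose leading transcript rested on a median of 9 fragments.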
